A study of Mus musculus with 3 samples.

Results

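Regional patterning transcription factors are the homeobox, basic helix-loop-helix, forkhead and zinc finger proteins whose expression divides the neural tube from the forebrain to the hindbrain. A list of 48 such genes was read by symbol from count tables of 32531 gene symbols, and all 48 had a row. The RNA came from polysomes carrying an EGFP-tagged ribosomal protein L10a, made under the control of Slc17a6 (vesicular glutamate transporter 2) in adult Slc17a6-TRAP JX883 mice. Tagged polysomes were immunopurified from dissected prefrontal cortex without any treatment. There was 1 group of 3 libraries, and each library was made from 3 mice. All libraries share the same transgene, and no input RNA or untagged control was analysed here, so a level is an abundance in the purified RNA and not an enrichment. RNA carried along without a tagged ribosome cannot be told apart, nor can fewer cells of a type be told from less RNA per cell.

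During development, combinations of these factors give progenitors a position along the body axis, and many stay on in the adult neurons that descend from them. Emx, Lhx2, Pax6 and the neurogenic helix-loop-helix genes act in the dorsal telencephalon, which forms the cortex. Otx and Six3 act in the anterior brain, and En, Lmx1 and Foxa genes act in the midbrain. Hox genes are laid out in 4 clusters and pattern the hindbrain and spinal cord. Meis and Pbx proteins of the TALE homeodomain class bind DNA together with Hox proteins but are also used where no Hox gene is active.

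The libraries held 12592174, 8964137 and 12648577 counts on named genes in replicates 1, 2 and 3. A gene with no count in a library could still lie at up to 3 counts there, equal to 0.238, 0.335 and 0.237 CPM (counts scaled to a common library total), for counting error only, since the reads carry no molecular identifiers. Pearson's r of log2 CPM lay between 0.971 and 0.976 for pairs of libraries, taken across 18377 genes (genes are not replicates). Each pair differed by more than sampling noise (chi-square per degree of freedom 12.5 to 17.4). Of 10 excitatory cortical markers, 10 stood at 1 CPM or more in each library and 0 were at 0, and Camk2a was highest at 2884 ± 265 CPM (SD, n = 3). Their sum was 4954 ± 200 CPM. Markers of other cells were present too. All 9 GABAergic markers reached 1 CPM in each library (sum 1076 ± 17.2 CPM, led by Gad2). So did all 7 astrocyte markers (sum 1442 ± 103 CPM, led by Slc1a2). A member's level thus cannot be assigned to excitatory neurons alone.

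The list split along the axis. Of the 48 members, 21 reached 1 CPM in every library (43.8%), against 57.3% of all protein-coding symbols and 37.9% of all symbols. No count was found in any library for 19 members (39.6%), against 24.3% of protein-coding symbols. The other 8 members had a count but stayed under 1 CPM in at least 1 library. The 21 well detected members were 13 of 14 factors of the dorsal telencephalon and cortical neurons, Otx1, Otx2 and Six3, all 4 TALE and Zic members, and Sim1 of the hypothalamus. Of the 23 Iroquois, midbrain and hindbrain members, 0 reached 1 CPM in any library, and together they held 2, 16 and 1 counts in replicates 1, 2 and 3. That sum of 19 counts, with an exact Poisson 95% interval of 11.4 to 29.7, compares with 44907 counts on the 25 other members.

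**Figure D1:**
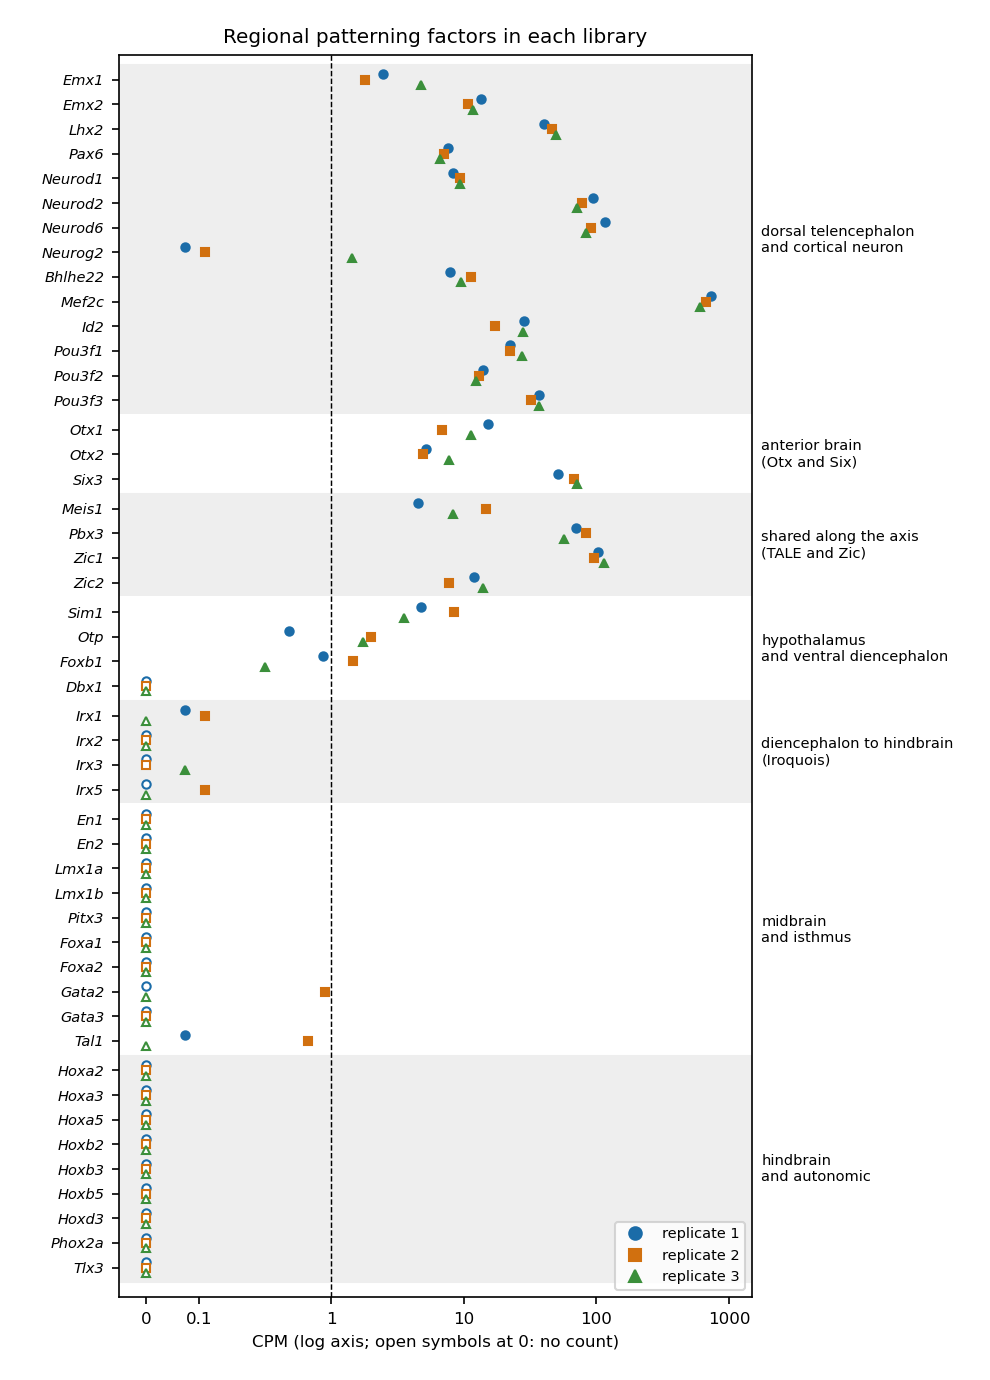
CPM of each of the 48 members on a log axis, 1 symbol per library, grouped by region of action, with a dashed line at 1 CPM and open symbols at 0 for a library with no count. The symbols lie right of the line in the 3 upper groups, apart from Neurog2 in replicates 1 and 2, and left of it in the 3 lower groups.

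Promoter sequences of 5 members are shown because they span the range of levels, from the highest per exon length (Neurod6) to genes with no count (Hoxa5, Phox2a). Each window runs from 250 bases before to 50 after a RefSeq start on GRCm38.p6, the assembly also called mm10, 5′ to 3′ on the strand of the gene. Capitals mark CG dinucleotides, a pair of letters that reads the same on both strands and is dense in CpG islands. Neurod6 is at chr6:55681214-55681513 (minus strand), Neurod2 at chr11:98329596-98329895 (minus), Six3 at chr17:85620584-85620883 (plus), Hoxa5 at chr6:52204538-52204837 (minus) and Phox2a at chr7:101818063-101818362 (plus).
Neurod6: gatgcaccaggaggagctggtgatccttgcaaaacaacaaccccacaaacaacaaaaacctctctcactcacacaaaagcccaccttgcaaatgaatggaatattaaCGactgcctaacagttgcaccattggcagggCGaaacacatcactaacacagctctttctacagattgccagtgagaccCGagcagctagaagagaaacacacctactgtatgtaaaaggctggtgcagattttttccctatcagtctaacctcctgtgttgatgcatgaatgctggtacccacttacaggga
Neurod2: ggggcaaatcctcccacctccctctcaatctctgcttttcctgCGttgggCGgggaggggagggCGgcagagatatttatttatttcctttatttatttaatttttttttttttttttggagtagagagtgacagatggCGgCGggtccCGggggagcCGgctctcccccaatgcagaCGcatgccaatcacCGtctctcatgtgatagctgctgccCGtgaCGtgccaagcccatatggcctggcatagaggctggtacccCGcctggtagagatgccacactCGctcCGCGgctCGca
Six3: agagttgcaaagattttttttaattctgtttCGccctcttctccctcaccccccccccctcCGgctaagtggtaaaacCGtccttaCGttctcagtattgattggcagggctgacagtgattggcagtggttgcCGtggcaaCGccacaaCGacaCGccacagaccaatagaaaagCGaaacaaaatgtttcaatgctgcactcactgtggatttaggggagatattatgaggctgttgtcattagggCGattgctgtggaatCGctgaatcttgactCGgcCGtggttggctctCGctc
Hoxa5: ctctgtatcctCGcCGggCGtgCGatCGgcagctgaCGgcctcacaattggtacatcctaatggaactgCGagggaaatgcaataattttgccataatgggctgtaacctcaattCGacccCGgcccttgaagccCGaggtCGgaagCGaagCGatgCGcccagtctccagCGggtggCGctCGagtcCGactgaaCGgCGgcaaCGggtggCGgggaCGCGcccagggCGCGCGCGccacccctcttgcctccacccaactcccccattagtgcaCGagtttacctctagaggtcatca
Phox2a: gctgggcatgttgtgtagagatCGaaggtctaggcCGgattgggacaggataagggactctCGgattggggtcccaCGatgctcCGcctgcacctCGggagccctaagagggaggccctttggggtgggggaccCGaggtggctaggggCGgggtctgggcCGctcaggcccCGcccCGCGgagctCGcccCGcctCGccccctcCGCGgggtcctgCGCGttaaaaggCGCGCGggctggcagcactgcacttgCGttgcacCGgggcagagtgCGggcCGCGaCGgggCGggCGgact

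The Neurod6 window holds 3 CG dinucleotides, the Neurod2 window 16, the Six3 window 14, the Hoxa5 window 29 and the Phox2a window 30. Windows were listed for 36 of the 48 members, and where a gene had several starts the median over them was taken. Members with no count in any library had a median of 20 CG per 300-base window (15 of 19 with a window), and members at 1 CPM or more in every library had a median of 17.5 (16 of 21). All genes with a window had a median of 7. At least 10 CG were found in 14 of 15 windows of members with no count, in 13 of 16 of the well detected members and in 44.1% of all genes, while 94.6% of all windows held at least 1. The lowest values among members belonged to Neurod6 and to Mef2c, whose median over several starts was 4. These counts describe letters in a window and carry no test.

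**Figure D2:**
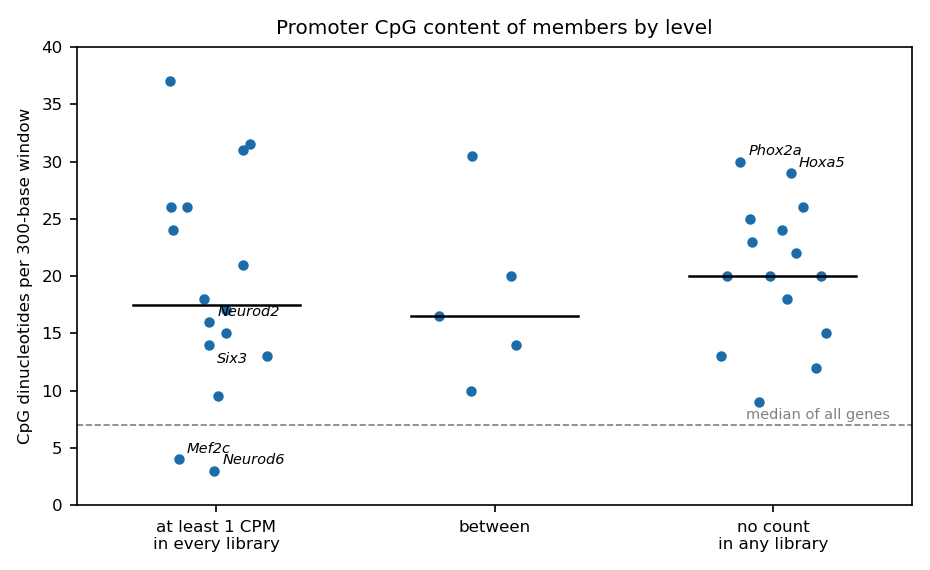
CG dinucleotides (CpG) per 300-base promoter window for the 36 members with a RefSeq window, by level in the libraries; points are genes, placed sideways at random, and bars are medians. The bars stand at 17.5, 16.5 and 20, above the dashed median of 7 for all genes, and Neurod6 and Mef2c lie below it.

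Dorsal telencephalic and cortical neuron factors carried most of the signal. Their 14 members summed to 1122, 1006 and 956 CPM in replicates 1, 2 and 3, of which Mef2c made 64.9%. Mef2c, a MADS-box factor that regulates synapse number in cortical neurons (chromosome 13, 83504034 to 83667080 on mm10), had 729, 667 and 605 CPM, rank 152 of all genes. Its merged exons span 15715 bases, so per length it stood at 212 ± 19.3 TPM (counts scaled by exon length and library total, SD, n = 3).

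The Neurod genes encode helix-loop-helix factors of excitatory neuron differentiation. Neurod6 (chromosome 6, 55677822 to 55681263) had 117, 90.4 and 83.0 CPM in replicates 1, 2 and 3, and Neurod2 had 93.8, 78.1 and 71.0 CPM. Both were highest in replicate 1 and lowest in replicate 3. Neurod1, which acts earlier in the lineage, had 8.26, 9.37 and 9.41 CPM. Per length Neurod6 exceeded Neurod2 by 0.80 ± 0.06 log2 units of TPM (SD, n = 3), or 1.74-fold, without overlap of the libraries. Neurod6 exceeded Neurod1 by 13.5-fold in TPM and Neurod2 exceeded Neurod1 by 7.76-fold, each in 3 of 3 libraries. With 225 ± 40.8 TPM Neurod6 had the highest mean among members, and its libraries overlapped those of Mef2c. Neurod2 followed at 129 ± 18.2 TPM, below both in every library. This order depends on the scale, since in CPM Mef2c led with 667 ± 62.1 against 96.8 ± 17.8 for Neurod6. The merged exons of Neurod6 span 2150 bases, against 15715 for Mef2c.

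Neurog2, the proneural gene that starts this cascade in progenitors, had 1, 1 and 18 counts in replicates 1, 2 and 3, or 0.0794, 0.112 and 1.42 CPM. It was thus the 1 dorsal telencephalic member that missed 1 CPM, and nearly all its counts lay in replicate 3. Among downstream and parallel factors, Bhlhe22, a transcriptional repressor needed for neurons to acquire cortical area identity, had 7.86, 11.3 and 9.49 CPM. Id2, a helix-loop-helix protein that lacks a DNA-binding region, was lower in replicate 2 (17.3 CPM) than in replicates 1 and 3 (28.6 and 27.8 CPM).

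Homeobox selectors of the cortex differed in level. Lhx2, a LIM-homeobox gene needed for cortical identity, had 40.5, 45.8 and 49.4 CPM. Pax6, a paired-homeobox gene of cortical progenitors, had 7.54, 7.14 and 6.64 CPM. Per length Lhx2 exceeded Pax6 by 16.9-fold in TPM (4.08 ± 0.24 log2 units, SD, n = 3), without overlap. In CPM the fold was 6.35, and merged exons span 11694 bases for Pax6 and 4393 for Lhx2. Emx2, which sets cortical area identity, had 13.5, 10.7 and 11.7 CPM, and Emx1, its close relative, had 2.46, 1.78 and 4.74 CPM. Emx2 exceeded Emx1 by 3.15-fold in TPM in 3 of 3 libraries, but the ratio ranged between 1.79 and 4.37. The antisense transcript Emx2os had 11.8 ± 0.935 CPM and shares 8.79% of the exonic bases of Emx2, and the use of strand in counting is not given in the sources used here.

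The POU factors of class III among the members, which act in upper and deep layer projection neurons, were all detected. Pou3f3 had 37.0, 32.2 and 36.9 CPM, Pou3f1 had 22.4, 22.3 and 27.4 CPM, and Pou3f2 had 14, 12.9 and 12.4 CPM. The order of the upper pair depended on the scale. Pou3f3 exceeded Pou3f1 1.48-fold in CPM, while per length it lay at 0.767 of Pou3f1 in TPM, with 23.9 ± 1.80 TPM for Pou3f3 and 31.3 ± 3.85 TPM for Pou3f1. Pou3f3 was the higher in 3 of 3 libraries in CPM and in 0 of 3 in TPM, without overlap of the libraries on either scale. Among these members Pou3f2 was lowest on both scales, at 11.7 ± 0.681 TPM. The paralog Pou3f4, not a member, lay lower still, at 2.64 ± 1.12 CPM and 4.51 ± 1.91 TPM. These genes have few or no introns and share similar coding sequence, so reads placed at more than 1 position, which were not counted, could lower them unevenly, which was not tested.

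**Figure D3:**
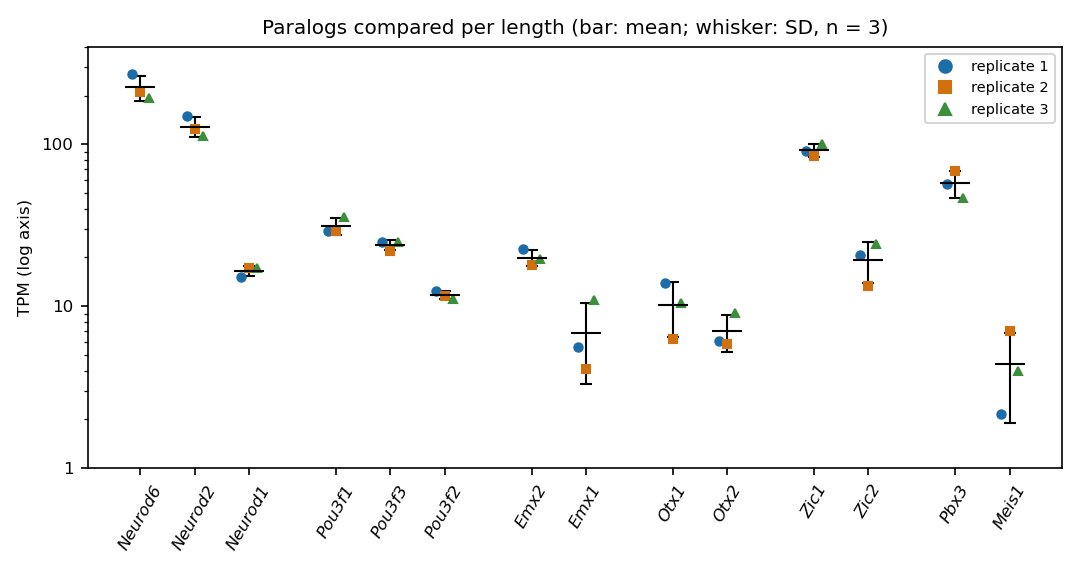
TPM (log axis) of members of the Neurod, Pou3f, Emx, Otx, Zic and TALE families, with 1 symbol per library and the mean and SD (n = 3) as a bar and whiskers. Neurod6 lies above Neurod2 and Neurod1, Zic1 above Zic2 and Pbx3 above Meis1 without overlap, while the libraries of Otx1 and Otx2 overlap.

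Among anterior brain factors Six3 stood highest. Six3, which sets the rostral forebrain and is later used by striatal projection neurons (chromosome 17, 85613608 to 85629302), had 51.3, 67.6 and 71.8 CPM, or 58.4 ± 10.1 TPM. Striatal markers summed to 406, 559 and 643 CPM in replicates 1, 2 and 3, with 8 of 8 at 1 CPM or more in every library, led by Penk at 201 ± 51.7 CPM. Their sum had the library order of Six3, as did 5 of the 8 markers, but the share of all genes with that order is not given here. None of the striatal markers was at 0, and their part in the Six3 level was not tested. Otx1, a homeobox gene retained in deep layer cortical neurons, had 15.2, 6.80 and 11.3 CPM. Otx2, needed for the forebrain and midbrain to form, had 5.16, 4.91 and 7.67 CPM. Otx1 exceeded Otx2 in 3 of 3 libraries by 0.50 ± 0.60 log2 units of TPM, a difference smaller than its spread.

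TALE and Zic factors, which are used at many positions along the axis, summed to 190, 202 and 194 CPM. Zic1, a zinc finger gene of midline structures, the septum and the cerebellum (chromosome 9, 91358058 to 91365810), had 103, 95.9 and 115 CPM. It ranked 2042 of all genes and, at 92.1 ± 8.35 TPM, stood next below Neurod2 among the members, without overlap of the libraries. Zic2 had 11.9, 7.70 and 13.8 CPM and lay 4.88-fold below Zic1 in TPM. Zic4, which lies head to head with Zic1 and shares 1.05% of its exonic bases, had 12.6, 6.36 and 13.1 CPM, lowest in the same library as Zic2. Cerebellar markers summed to 111, 106 and 163 CPM, led by Cbln1 at 70.5 ± 25 CPM, and the granule cell marker Gabra6 had 1 count, in replicate 3.

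Pbx3 had 69.8, 83.7 and 56.9 CPM and Meis1 had 4.53, 14.7 and 8.30 CPM, both highest in replicate 2. Pbx3 exceeded Meis1 by 14.5-fold in TPM and by 8.44-fold in CPM, without overlap on either scale. Their merged exons span 6109 and 10532 bases. Of the exonic bases of Meis1, 18.3% are shared with other genes in GENCODE M21, but those genes are not among the counted symbols. Per length, Six3, Pbx3 (57.5 ± 11 TPM), Lhx2 (51.6 ± 5.24 TPM) and Id2 (50.4 ± 12.9 TPM) followed Zic1 and overlapped one another. Meis2, a paralog of Meis1, had 124 ± 7.46 CPM.

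Hypothalamic and ventral diencephalic members were scarce. Sim1, which specifies neuroendocrine neurons, had 4.76, 8.48 and 3.56 CPM, and Otp, its partner in that lineage, had 0.476, 2.01 and 1.74 CPM. Foxb1, a forkhead gene of the mammillary body, had 0.874, 1.45 and 0.316 CPM, and Dbx1, a progenitor homeobox gene, had no count. Sim1 and Foxb1 were highest in replicate 2 and lowest in replicate 3. Hypothalamic peptide markers summed to 26.8, 38.4 and 67.4 CPM, with 3 of 9 at 1 CPM in every library. Trh, which is also on the olfactory bulb list, led at 28.7 ± 12.4 CPM and made 64.9% of that sum. Of the 9 markers, 7 were highest in replicate 3. Hcrt had 3, 0 and 42 counts and Pmch had 0, 2 and 40 counts in replicates 1, 2 and 3, nearly all in replicate 3. Crh (1.19, 1.34 and 5.46 CPM), Gal (8.26, 3.24 and 12.6 CPM), Avp (0.715, 2.12 and 2.13 CPM) and Oxt (0.238, 0.446 and 0.553 CPM) were also highest there. Pomc was highest in replicate 1 (0.635, 0.335 and 0.158 CPM), and Agrp had 1 count, in replicate 2. None of the 9 had the library order of Sim1.

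The Iroquois genes, which mark territory from the posterior diencephalon backwards, were at the limit of detection. Irx1 had 1, 1 and 0 counts in replicates 1, 2 and 3. Irx3 had a single count in replicate 3, Irx5 a single count in replicate 2, and Irx2 none. The paralogs Irx4 and Irx6 had no count either.

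Midbrain and isthmus members were nearly empty. No count was found for En1 and En2, which set the midbrain-hindbrain boundary region, for Lmx1a, Lmx1b, Pitx3, Foxa1 and Foxa2, which specify dopamine neurons, or for Gata3. Gata2 had 8 counts in replicate 2 and none elsewhere, and Tal1 had 1, 6 and 0 counts in replicates 1, 2 and 3. Gata2 and Tal1 act together in GABAergic neurons of the midbrain and also in blood cell precursors. Tal2, a paralog of Tal1 that was chosen after its values were seen, had the same counts as Gata2. These genes had all their counts in replicate 2, apart from 1 count of Tal1 in replicate 1. Without that library the midbrain group averaged 0.0397 CPM in sum, against 0.547 ± 0.880 CPM with it. Monoamine and brainstem markers summed to 28.8, 30.9 and 27.2 CPM, with 4 of 13 at 1 CPM in every library. Th (7.88 ± 1.25 CPM), Ddc (7.63 ± 2.29 CPM) and Slc18a2 (5.47 ± 1.12 CPM) led that sum and were highest in replicate 1. In replicate 2, 5 of the 13 were highest. They were Fev (3, 9 and 4 counts), a factor of serotonin neurons, Dbh (0.397, 1.12 and 0.237 CPM), the enzyme that makes noradrenaline, the dopamine transporter Slc6a3 (0.159, 0.446 and 0.0791 CPM), the glycine receptor gene Glra1 (1.83, 4.69 and 3.95 CPM) and Chat (0.794, 2.57 and 2.21 CPM). Replicate 3 was highest for 4 others, Tph2, Slc6a4, Slc6a2 and Slc18a3. Slc6a5, the glycine transporter, had no count. Th and Ddc are also used by other cell types, and the part of these messages in the Gata2 and Tal1 counts was not tested.

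Hindbrain and autonomic members were at 0 in all libraries. They were Hoxa2, Hoxa3, Hoxa5, Hoxb2, Hoxb3, Hoxb5 and Hoxd3, together with Phox2a, a determinant of noradrenergic neurons, and Tlx3, a selector of glutamatergic relay neurons. Across all 39 Hox genes of the 4 clusters, 2 counts were found among 34204888, 1 of Hoxa7 and 1 of Hoxb1, both in replicate 3. The remaining 37 had no count, and the annotated antisense transcripts Hoxaas2, Hoxaas3, Hoxd3os1, Hotairm1 and Hotair had none. Exonic overlap could be a limit for some of these genes, since reads shared by counted genes were set aside. In GENCODE M21 it reaches 62.8% of the exonic bases of Hoxd3, 52.9% of Hoxb3, 27.3% of Hoxb2 and 27.1% of Hoxa3. Hoxb3os, the only partner of Hoxb2 and Hoxb3, is not among the counted symbols. The same holds for Gm28230, which shares most of the overlapping bases of Hoxd3. Counted partners include Hoxd4 (388 shared bases) and Hoxd3os1 (347) for Hoxd3, and Hoxaas2 (503) and Hoxaas3 (297) for Hoxa3. Whether overlap lowered any of these counts was not tested. Of the 19 members with no count, 10 share no exonic base with an annotated gene, among them Hoxa5, En1, En2, Lmx1a, Lmx1b and Foxa2.

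Other patterning factors from lists that hold no member were set beside these results. Of 20 other telencephalic factors, 16 reached 1 CPM in every library and 0 were without a count. Tbr1, a factor of cortical projection neurons, had 181 ± 17.9 CPM. Of 14 other diencephalic factors, 6 reached it and 4 had no count, led by Barhl2 at 32.9 ± 5.44 CPM and Prox1 at 21.3 ± 6.13 CPM. Of 18 other midbrain and hindbrain factors, 4 reached it and 4 had no count. Those that reached it included Nr4a2 (88.7 ± 16.1 CPM), Ebf3 (138, 64.7 and 31.2 CPM) and Ebf2 (11.7 ± 4.73 CPM), and each of these is also known from cortical or other forebrain cells. Of 41 paralogs of the members, 16 reached it and 15 had no count, and Mef2d had 341 ± 34.7 CPM.

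**Figure D4:**
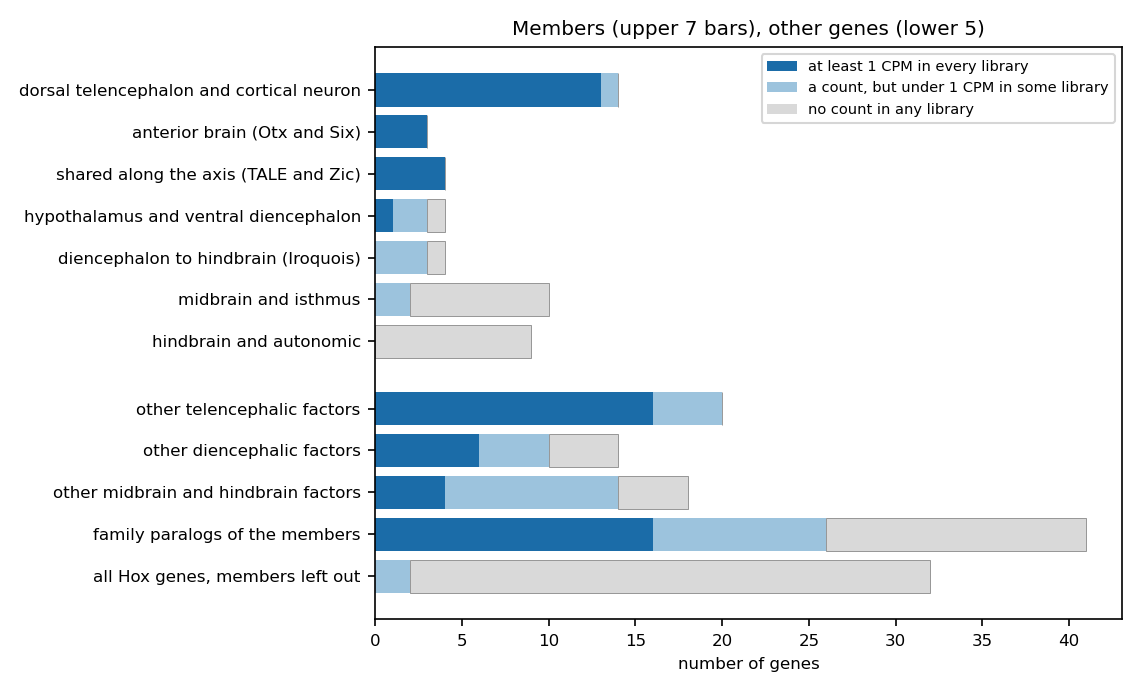
Number of genes per group that reached 1 CPM in every library (dark), had a count but missed that level (light) or had no count (grey), for the 7 groups of members above and 5 lists of other patterning genes below. The dark part fills 13 of 14 in the dorsal telencephalic group and 16 of 20 in the other telencephalic list, and is absent from the Iroquois, midbrain, hindbrain and Hox rows.

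The last question was whether any member varied between the libraries more than genes of like abundance. The goodness of fit of an edgeR model with 1 mean per gene was tested for 14774 genes with at least 10 counts in some library, of which 24 were members. At an adjusted p of 0.05, 0 of the 24 were called, against 0.244% of all genes tested (36 genes), and a limma variance test also called 0. At an unadjusted p of 0.05, 1 member passed, against 7.22% of all genes. That member was Meis1 (Benjamini-Hochberg adjusted p = 0.585 in edgeR), whose 132 counts in replicate 2 compare with 57 and 105 in replicates 1 and 3. Meis1 also had the widest range of the 21 well detected members, 3.25-fold between its highest and lowest library. Thalamic markers summed to 506, 502 and 479 CPM, led by Rora at 158 ± 17.9 CPM, with Gbx2 at 0. The sum did not have the library order of Meis1, but 2 of the 8 markers did, Tcf7l2 (7.86, 32.4 and 20.6 CPM) and Lef1 (0.715, 1.78 and 1.11 CPM). The share of all genes with that order is not given here, and the part of these markers in the Meis1 level was not tested. Among the lists of other patterning factors, Ebf3 (adjusted p = 3.63e-09 in edgeR) and the same Tcf7l2 (adjusted p = 0.0429 in edgeR) were called. Ebf3 lost its call without replicate 1 (adjusted p = 0.425 in edgeR), and Tcf7l2 lost it without replicate 1 or 2 (adjusted p = 0.941 and 0.478 in edgeR). The Tcf7l2 call was also lost in edgeR with no further filter on low counts (adjusted p = 0.0592), with 10 counts required in every library (adjusted p = 0.0577) and with a common dispersion (adjusted p = 0.0799), and in limma (adjusted p = 0.251).

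Most members were as steady as other expressed genes. The median fold between the highest and lowest library was 1.40 over the 21 well detected members, against 1.35 over all genes at that level, and 14 of the 21 stayed under 1.5-fold, against 63.5% of those genes. Replicate 1 was highest for 9 of the 21, replicate 2 for 4 and replicate 3 for 8. Olfactory bulb markers differed more between libraries, with sums of 179, 154 and 70.7 CPM in replicates 1, 2 and 3, 5 of 7 at 1 CPM in every library, Cdhr1 leading at 76.6 ± 52.3 CPM and none at 0 throughout. Neurod6 and Neurod2 had the library order of that sum and of 5 of the 7 markers, while Trh was lowest in replicate 1 (15.5 CPM) and highest in replicate 3. No share of all genes with the order of Neurod6 is given here, and whether these levels are related was not tested. The labels give a replicate number and 3 mice per library, and do not say whether the mice differ between libraries. The spread can thus hold differences between pools of mice and technical differences together.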

How the data were processed

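Messages on EGFP-tagged ribosomes of 3 libraries were counted by the authors, who deposited raw counts per gene symbol as whole numbers. The submitters' processing notes name STAR 2.0.0e, HTSeq and mm10. Settings, annotation and strand use are not given in the sources. Summary lines without a gene were left out; their share was 27.8% ± 0.56 (SD, n = 3). CPM were computed over named genes, and TPM over merged exon lengths of GENCODE M21 (mm10), which matched 87.1% of symbols with a count and all 48 members. Merged exons are at least as long as any transcript of the gene, so folds in TPM between genes depend on that choice. Variation between libraries was tested in edgeR 4.0.16 by how well a negative binomial model with a single mean per gene fits (TMM, trended dispersion, chi-square with 2 degrees of freedom, Benjamini-Hochberg over all genes). Alternatives used limma 3.58.1, DESeq2 1.42.0 size factors, other filters, totals that leave out Rn45s, a ribosomal RNA precursor, and each replicate left out. Tables were handled in pandas 2.3.3 under Python 3.11.15 and models fitted in R 4.3.3. Promoter windows are RefSeq's on GRCm38.p6. Members and lists were chosen with earlier results of these data known. The text names all members, the 2 highest and every called gene of each list of other factors, and the highest and the empty genes of the marker lists it uses; other genes were chosen after their values were seen. Values of some single genes on the fixed lists are not reported here, while the counts over each list include them.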

Additional observations from a re-analysis of the deposited data

How the results depend on the processing

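The count of 21 members at 1 CPM in every library stayed at 21 with 0.5 CPM, 10 counts, 1 TPM, totals without Rn45s or TMM sizes, and was 21 to 22 with a replicate left out, where Otp joined without replicate 1. The count of varying members stayed at 0 except with a common dispersion, where it was 1 (Neurog2, adjusted p = 0.00759 in edgeR, against 0.860 with the trend); the cause was not tested. A stricter adjusted p of 0.01, chosen after seeing the data, also gave 0. In TPM the dorsal telencephalic, TALE and Zic, and Iroquois sums were 797, 173 and 0.229, and without Rn45s the TALE and Zic sum was 210 CPM. With a replicate left out, the sums in CPM lay between 981 and 1064 (dorsal telencephalic), 75.5 and 85.0 (anterior), 192 and 198 (TALE and Zic), 5.86 and 9.03 (hypothalamic), 0.0792 and 0.151 (Iroquois) and 0.0397 and 0.821 (midbrain), and stayed at 0 (hindbrain). Counts of other patterning genes moved by less than 1.5 times. Of 48 mean CPM values, 4 moved by more than 1 SD without Rn45s and 0 with TMM. No paired analysis was possible because there is 1 group. Depth limits the members with no count, each of which could lie at up to 3 counts per library.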
